A study of Mus musculus with 8 samples.

Results

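The genes described here are 10 integrin subunits of leukocytes, namely Itgam, Itgax, Itgal, Itgb2, Itga4, Itga5, Itga6, Itgb1, Itgb7 and Itgae. They were taken by name, with the Ensembl identifiers of the count files matched to symbols, and are 10 of 48709 gene identifiers counted. Of these, 9 passed the filter on low counts, as did 12696 genes in all, and Itgae did not. Their transcripts were measured in cultures grown from mouse hematopoietic stem and progenitor cells (HSPCs) of strain C57Bl/6J, blood-forming cells sorted as lacking lineage markers and carrying Sca1 and cKit. The first group of 4 libraries came from cultures with 100 µM malonyl-CoA, the building block of fatty acid chains and an inhibitor of fatty acid entry into mitochondria. The other group of 4 came from control cultures without it. All 8 cultures ran for 7 days without serum, fed with 100 ng/ml of SCF (stem cell factor) and 2 ng/ml of Flt3 ligand, and were numbered 1, 3, 4 and 5 in each group. RNA was taken from the whole progeny of 10000 seeded cells, so a level is an average over all cells of a culture, and the labels do not say whether a number stands for an animal, a pool or a culture. P-values therefore measure the spread between these samples.

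Integrins are adhesion receptors made of an alpha and a beta subunit, and only the assembled pair reaches the cell surface. Itgb2 pairs with Itgal, Itgam or Itgax into the leukocyte receptors that bind intercellular adhesion molecules, complement fragments and fibrinogen. Itgb1 pairs with Itga4, which binds Vcam1 and fibronectin, with Itga5, which binds fibronectin, and with Itga6, which binds laminin. Itgb7 pairs with Itga4 or with Itgae, whose ligand is E-cadherin. In bone marrow the Itgb1 receptors are known for holding stem and progenitor cells in their niche, and the Itgb2 receptors for adhesion and migration of mature myeloid and lymphoid cells.

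Counts assigned to genes ranged from 17492085 to 22079844 per library. The cultures held transcripts of stem and progenitor markers, with Kit at 244 and 270.1 CPM (counts per 1000000 assigned, with TMM scaling factors) in the malonyl-CoA and control means, and many myeloid transcripts, with Mpo at 9165 and 9386 CPM. Of 16 marker genes of T, B and NK cells, 9 stayed under 1 CPM in every library and Cd3e was at 0 in all 8. Summed over its list, the stem and progenitor marker level lay at 1403 to 1442 CPM with malonyl-CoA and at 1525 to 1706 CPM in controls, and the mast cell and basophil level at 865 to 992 CPM against 1036 to 1237 CPM. The gap in the stem and progenitor sum came mostly from Cd34, at 454 and 598 CPM: without it, a choice made after the values were seen, the sums were 927 to 1001 and 944 to 1092 CPM and overlapped. That list had 7 positive and 8 negative log2 fold changes, with Ly6a at 0.94 (SE 0.44), Procr at 1.14 (SE 0.88) and Mycn at 0.37 (SE 0.16). Hlf at -0.55 (SE 0.15) and Tal1 at -0.24 (SE 0.10) lay wholly below the controls, as Cd34 did, and Mycn wholly above. At an unadjusted p under 0.05 in edgeR, 3 of the list were lower and 1 higher, where the shares of all genes were 4.1% and 5.43%. The sums of the other lists (monocyte, dendritic cell, neutrophil, eosinophil, erythroid, megakaryocyte, lymphocyte and stromal) overlapped, but marker by marker some leaned one way. Of 15 neutrophil markers 13 had a negative log2 fold change (median -0.40), 7 of them at an unadjusted p under 0.05, where the share of all genes was 4.1%. Of 12 dendritic cell markers tested, 5 were higher and 1 lower at that p (median 0.46), where 5.43% of all genes were higher. Of 7 lymphocyte markers tested, 3 were lower and 1 higher at that p (median -0.35), with Rag2 and Dntt wholly below the controls. After adjustment edgeR called 0 genes of these lists. A pair of libraries stood apart, and values without them are given where they matter: malonyl-CoA 4, which lay at 42.4 on the first principal component with control 4 next at 21.1, and control 5, in which transcripts rich in G and C read low (Spearman's rho of deviation against GC share across genes -0.75, against -0.10 to 0.24 in the other controls and 0.22 to 0.52 with malonyl-CoA; genes are not independent replicates).

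Itga5 (ENSMUSG00000000555, chromosome 15, 103344286 to 103366763, minus strand, GRCm38), the alpha subunit of the main fibronectin receptor, was the member that differed most between the groups, though it did not pass the test over all genes. It stood at 45.7, 49.5, 65.1 and 40.2 CPM in malonyl-CoA cultures 1, 3, 4 and 5, against 20.4, 29.6, 35.5 and 25.9 CPM in controls 1, 3, 4 and 5. All 4 malonyl-CoA libraries lay above all 4 controls, and library 4 was the highest of each group. The means were 50.15 ± 10.7 and 27.9 ± 6.36 CPM (SD, n = 4 each), a 1.8-fold difference. The log2 fold change, malonyl-CoA minus control, was 0.85 (SE 0.20, 95% interval 0.40 to 1.30), with an adjusted p of 0.352 in edgeR's quasi-likelihood test with Benjamini-Hochberg adjustment, rank 60 of 12696 by p. DESeq2, run as an alternative, called it (adjusted p = 0.0378). Transcripts of Itga5 are rich in G and C (57.5%), and with a GC correction per library the log2 fold change was 0.59 (edgeR adjusted p = 0.521). Without malonyl-CoA 4 it was 0.69 and without both control 5 and malonyl-CoA 4 it was 0.66. Over the same groups the mast cell sum and Cd34 were lower with malonyl-CoA, most neutrophil markers had negative and most dendritic cell markers positive log2 fold changes, and their part in the difference was not tested. In RNA of whole cultures, fewer cells of a type and less RNA per cell cannot be told apart.

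Counted over the members, edgeR called 0 of the 9 tested genes at an adjusted p under 0.05, as it called 0% of all genes tested. At an unadjusted p under 0.05 edgeR had 1 member, Itga5, where the share over all genes was 9.53%, so the count of members is near that background. DESeq2 called 1 member, again Itga5, against 0.555% of the genes it gave an adjusted p, and limma-voom called 0. A fit of edgeR that blocks on library number called 1 member, also Itga5, against 1.35% of all genes. The malonyl-CoA group lay wholly above the controls in 1 of the 9, against 3.21% of all genes, and below them in 0, against 2.93%, which makes 6.14% in either direction. The log2 fold change was positive in 6 of 9 members and in 53.4% of all genes, with a median of 0.20 over the members and 0.02 over all genes.

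**Figure D1:**
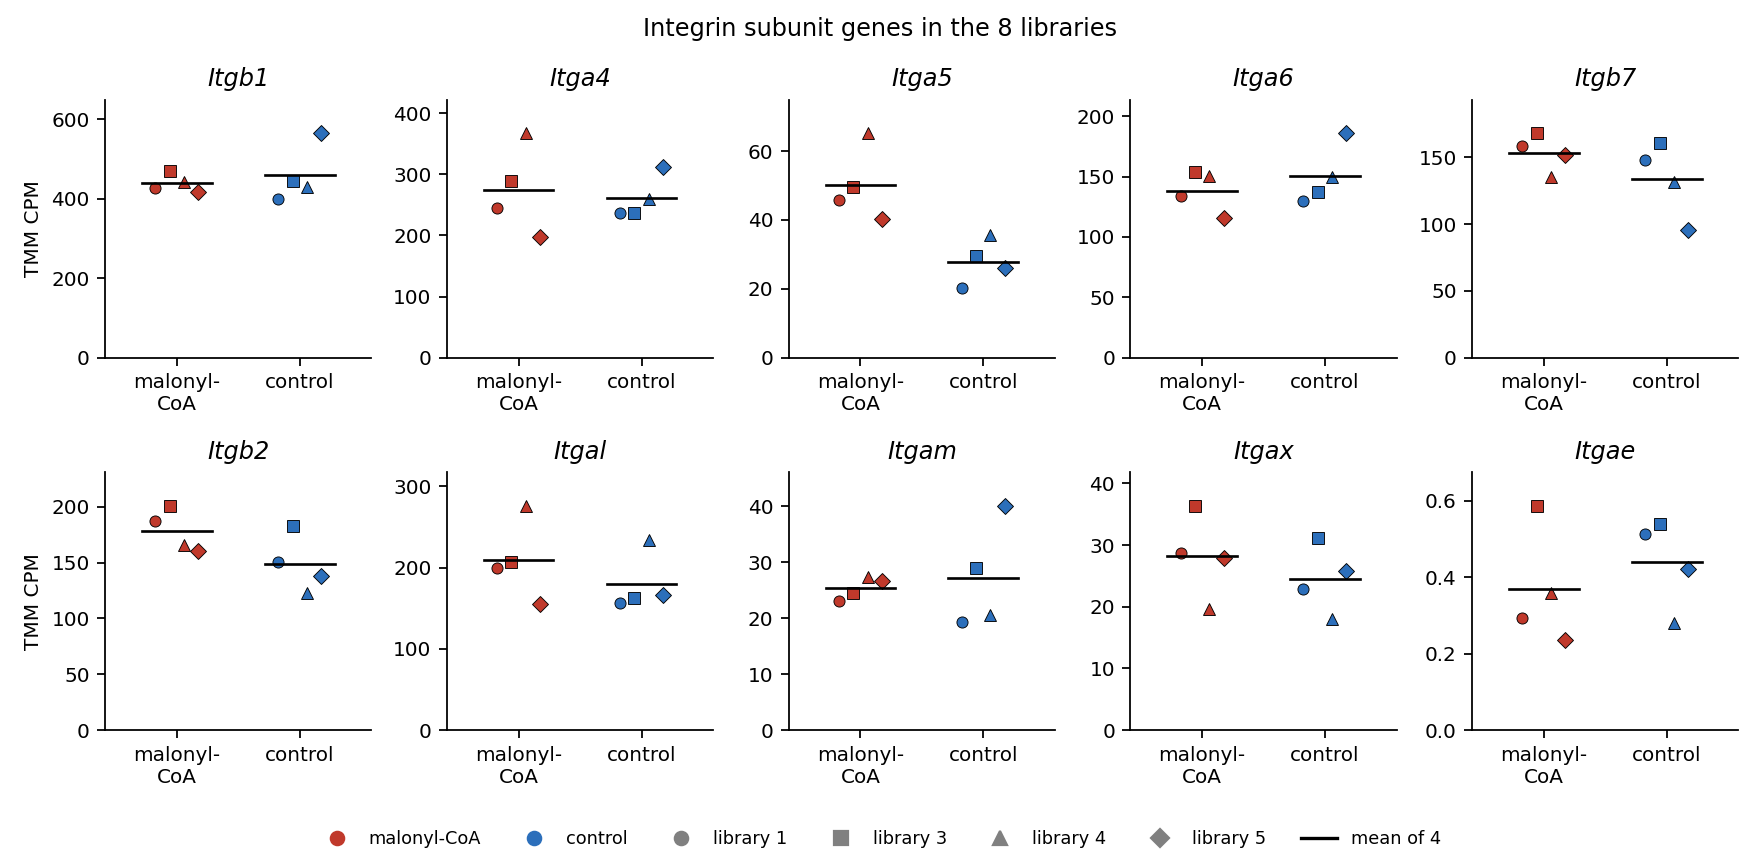
TMM CPM of each integrin subunit gene in the 8 libraries, on a linear axis from 0 for each gene. Points are libraries, with a marker shape for each library number, and lines are means of 4; Itga5 is the panel without overlap, at 40.2 to 65.1 CPM with malonyl-CoA and 20.4 to 35.5 CPM in controls.

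The upstream windows of Itga5 and of its partner Itgb1 are shown because these genes encode the subunits of the same receptor and gave different values. Each window holds the 250 bases before the start given by RefSeq on GRCm38.p6, written 5′ to 3′ along the gene. Itga5 lies on the minus strand of chromosome 15 (window chr15:103366792-103367041) and Itgb1 on the plus strand of chromosome 8 (window chr8:128685404-128685653). Capitals mark GAGGAA, the core letters of sites for the myeloid factor PU.1, and GGGCGG, those of sites for Sp1, found on either strand without overlap between them.
Itga5: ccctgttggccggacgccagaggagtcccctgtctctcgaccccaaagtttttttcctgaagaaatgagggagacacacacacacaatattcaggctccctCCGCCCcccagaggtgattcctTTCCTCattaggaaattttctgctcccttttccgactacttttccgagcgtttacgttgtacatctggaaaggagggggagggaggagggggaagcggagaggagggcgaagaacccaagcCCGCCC
Itgb1: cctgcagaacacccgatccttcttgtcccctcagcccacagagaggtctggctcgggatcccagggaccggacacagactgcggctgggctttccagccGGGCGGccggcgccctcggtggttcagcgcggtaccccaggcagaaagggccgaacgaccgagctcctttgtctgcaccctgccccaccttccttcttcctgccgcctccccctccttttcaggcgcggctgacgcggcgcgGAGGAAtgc
Itga5 held 1 match to GAGGAA and 2 to GGGCGG, and Itgb1 held 1 of each. Over all 32851 windows of that length, 23.3% held GAGGAA and 32.7% held GGGCGG on either strand, so such matches are common, and they describe the letters and not binding.

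Itgb1 (ENSMUSG00000025809, chromosome 8, 128685654 to 128733200, plus strand), the beta subunit shared by these receptors, gave nearly the same means in both groups, 439.5 ± 23.3 and 459.5 ± 72.5 CPM (SD, n = 4 each). It stood at 428, 471, 443 and 417 CPM with malonyl-CoA and at 399.9, 444, 429 and 565 CPM in controls 1, 3, 4 and 5. The malonyl-CoA values fell inside the control range, whose top was control 5. The log2 fold change was -0.06 (SE 0.13, 95% interval -0.35 to 0.22, edgeR adjusted p = 0.83). It was 0.05 without control 5 and 0.0074 with the GC correction, so its sign turned under both.

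Itga4 (ENSMUSG00000027009, chromosome 2, 79255426 to 79333123, plus strand), which pairs with Itgb1 and with Itgb7, stood at 245, 289.7, 367 and 198 CPM with malonyl-CoA and at 237, 237, 259 and 313 CPM in controls. Malonyl-CoA 4 was the highest and malonyl-CoA 5 the lowest of all 8 libraries, so the malonyl-CoA group enclosed the controls. The means were 275 ± 72.0 and 261.5 ± 35.7 CPM (SD, n = 4 each), and the log2 fold change was 0.07 (SE 0.19, 95% interval -0.34 to 0.49). Without malonyl-CoA 4 it was -0.11. The gene overlaps Cerkl on the opposite strand over 1124 of 13978 exon bases, and since the strand setting of the counter is not given, reads there cannot be told apart. Cerkl held 18 to 86 counts per library, against 3344 to 8215 for Itga4.

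Itga6 (ENSMUSG00000027111, chromosome 2, 71745616 to 71858416, plus strand), the laminin-binding subunit found on stem cells and on megakaryocytes, stood at 134, 153, 150.3 and 116 CPM with malonyl-CoA and at 129.7, 137, 150.0 and 186 CPM in controls. The groups overlapped, and the log2 fold change was -0.12 (SE 0.14, 95% interval -0.45 to 0.20, edgeR adjusted p = 0.711). Control 5 was the highest library, and without it the value was -0.0059. Of the 50-base words of its longest coding transcript, 6.5% also occur in Gm29397, which had 0 counts in all 8 libraries.

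Relative to the other alpha transcripts of the Itgb1 family, Itga5 took a larger share in every malonyl-CoA library than in any control. To compare levels between genes, CPM was divided by the exon length in kb, with the exons of all transcripts joined, which gives CPM per kb. The size of each share and ratio depends on that choice of length. Itga5 made up 19.9%, 18.8%, 20.7% and 20.9% of the summed CPM per kb of the 12 alpha genes that pair with Itgb1 in malonyl-CoA cultures 1, 3, 4 and 5, against 10.4%, 14.0%, 15.02% and 9.71% in controls 1, 3, 4 and 5. The mean share was 20.1% ± 0.92 with malonyl-CoA and 12.3% ± 2.62 in controls (SD, n = 4 each), without overlap. Itga6 made up 26.1% to 32.9% with malonyl-CoA and 34.7% to 38.1% in controls, also without overlap, while Itga4 made up 36.2% to 41.1% and 38.7% to 42.9%. Shares sum to a fixed total, so a larger share of Itga5 lowers the others. The shares were chosen after the values had been seen, and no test is given. They use CPM without GC correction, and the GC share is 57.5% for Itga5, 41.1% for Itga4 and 48.9% for Itga6. Control 5, in which transcripts rich in G and C read low, had the lowest Itga5 share. With the GC correction the log2 fold changes were 0.59 for Itga5, 0.19 for Itga4 and -0.14 for Itga6, and corrected shares were not computed. The ratio of Itga5 to Itgb1 per kb was 0.0798 to 0.122 with malonyl-CoA and 0.0380 to 0.0684 in controls. The ratio of Itga4 to Itgb1 was 0.139 to 0.242 against 0.156 to 0.176, and that of Itga6 to Itgb1 was 0.126 to 0.154 against 0.140 to 0.158, both with overlap.

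**Figure D2:**
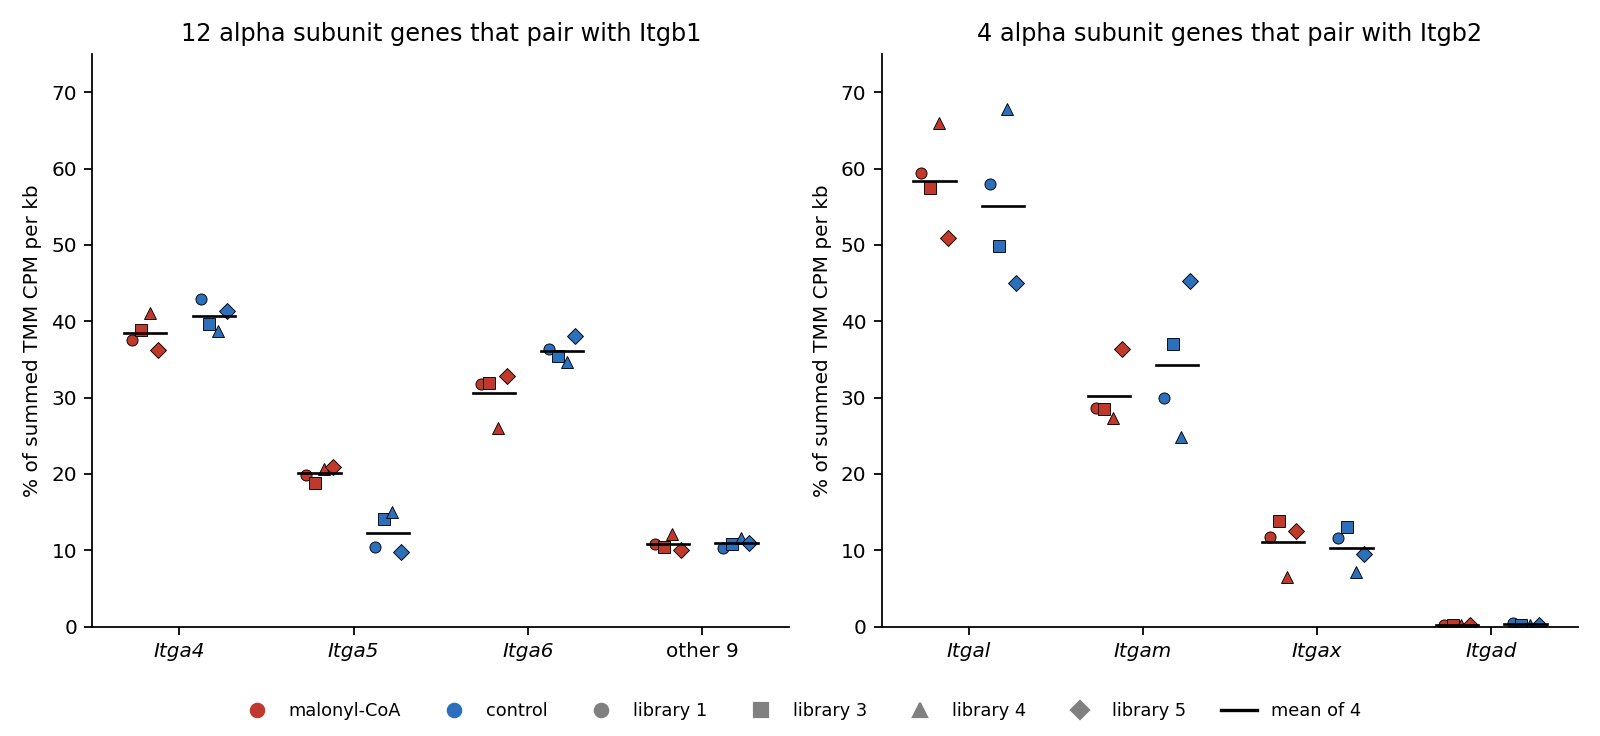
Share of each alpha subunit gene in the summed TMM CPM per kb of the alpha genes that pair with Itgb1 (left) and with Itgb2 (right), in percent, for the 8 libraries, with lines at the means of 4 and Itgam taken over its unshared exon bases. Itga5 sits at 18.8% to 20.9% with malonyl-CoA and at 9.71% to 15.02% in controls, without GC correction.

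Itgb2 (ENSMUSG00000000290, chromosome 10, 77530252 to 77565708, plus strand), the common beta subunit of the leukocyte receptors, had the smallest p after Itga5. It stood at 188, 201, 165 and 160.2 CPM with malonyl-CoA and at 150.2, 183, 123 and 138 CPM in controls. The malonyl-CoA values were the higher ones on the whole, but control 3 lay above malonyl-CoA 4 and 5. The means were 178.5 ± 19.0 and 149 ± 25.5 CPM (SD, n = 4 each), with a log2 fold change of 0.26 (SE 0.14, 95% interval -0.05 to 0.58, edgeR adjusted p = 0.519). With the GC correction the log2 fold change was 0.15. With a block on library number it was 0.27 (edgeR adjusted p = 0.103), and with block and GC correction 0.15 (edgeR adjusted p = 0.333).

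Itgal (ENSMUSG00000030830, chromosome 7, 127296260 to 127335138, plus strand), which with Itgb2 forms the receptor for Icam1 on most leukocytes, was spread widely within each group. It stood at 199, 206, 276 and 155 CPM with malonyl-CoA and at 156, 163, 234 and 166 CPM in controls. Library 4 was the highest of each group, and the groups overlapped, with a log2 fold change of 0.22 (SE 0.19, 95% interval -0.21 to 0.65, edgeR adjusted p = 0.623). It was 0.05 without malonyl-CoA 4 and 0.37 without control 4. The ratio of Itgal to Itgb2 per kb was 0.775 in malonyl-CoA 4 and 0.882 in control 4, against 0.45 to 0.493 in the other malonyl-CoA cultures and 0.414 to 0.56 in the other controls.

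Itgax (ENSMUSG00000030789, chromosome 7, 128129547 to 128150657, plus strand), which marks dendritic cells and some macrophages, stood at 28.8, 36.4, 19.7 and 27.9 CPM with malonyl-CoA and at 22.9, 31.1, 18.0 and 25.7 CPM in controls. Library 3 was the highest and library 4 the lowest of each group, and the groups overlapped, with a log2 fold change of 0.21 (SE 0.22, 95% interval -0.28 to 0.69, edgeR adjusted p = 0.674), and 0.06 without malonyl-CoA 3. The dendritic cell marker sum, which does not hold Itgax, was likewise lowest in library 4, at 1160 and 1037 CPM in malonyl-CoA and control cultures. It was highest in library 3, at 2164 and 1748 CPM. By mean its largest terms were Cd74 and H2-Aa, at 776 and 450 CPM in malonyl-CoA 3 and 374 and 158.5 CPM in malonyl-CoA 4. Not every marker of the list ran this way: Ciita was highest in library 4 of each group, at 16.7 and 7.69 CPM. The part of this sum in the Itgax values was not tested.

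Itgax lies on chromosome 7 next to its close relatives Itgam and Itgad, and a part of its sequence is shared with Itgad. Of the 50-base words of its longest coding transcript, 9.61% also occur in Itgad, and reads that fall wholly in them have more than 1 position. That transcript, untranslated parts included, holds 6 shared stretches of at least 50 bases. The longest within the coding sequence has 188 bases that are the same in both genes. It spans bases 1201 to 1388 of 3507 counted from the start codon. This stretch is printed to show what such reads look like, on the plus strand as in the GENCODE M21 transcript on GRCm38.
Itgax: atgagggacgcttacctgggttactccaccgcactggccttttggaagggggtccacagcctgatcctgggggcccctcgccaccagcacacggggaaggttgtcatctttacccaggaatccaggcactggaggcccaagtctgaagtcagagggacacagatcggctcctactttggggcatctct
Itgad itself held 8 to 14 counts per library, against 386 to 744 for Itgax. The counter's class for several positions made up 38.2% to 51.1% of its summed tally.

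Itgam (ENSMUSG00000030786, chromosome 7, 128062640 to 128118491, plus strand), the subunit of the myeloid receptor Mac-1 that marks monocytes and granulocytes, stood at 23.0, 24.5, 27.4 and 26.6 CPM with malonyl-CoA and at 19.3, 29.0, 20.5 and 40.0 CPM in controls. The malonyl-CoA values fell inside the control range, and control 5 was the highest library. The means were 25.4 ± 2.01 and 27.2 ± 9.57 CPM (SD, n = 4 each), with a log2 fold change of -0.10 (SE 0.22, 95% interval -0.60 to 0.40, edgeR adjusted p = 0.845). The sign turned when control 5 was left out, to 0.14. Neutrophil markers summed to 12730 to 16500 CPM with malonyl-CoA and 12590 to 19780 CPM in controls, with control 5 the lowest of all. That sum is carried by Mpo, Elane and Prtn3, and leaving these out was a choice made after the values were seen. The other 12 markers summed to 1265 to 1906 CPM with malonyl-CoA and 1708 to 3201 CPM in controls. Control 5 had the highest of these sums, as it had for Itgam, with S100a8 and S100a9 as its largest terms. Single markers among the 12 went both ways in control 5. Chil3 and Mmp8 were highest there, at 177 and 88.0 CPM, and Cebpe and Csf3r lowest, at 17.2 and 81.8 CPM. S100a8 stood at 1307 CPM in control 5, against 196 to 507 CPM with malonyl-CoA and 380 to 659 CPM in the other controls. The part of these markers in the Itgam values was not tested.

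The level of Itgam depends on how much of the gene could be counted. In the annotation, 68.7% of its exon bases also lie in exons of the predicted gene Gm49368 on the same strand, and Gm49368 held 1 count in control 5 and 0 in the other 7 libraries. A counter that sets aside reads matching more than 1 gene would leave the 1574 exon bases that are not shared, of 5024, and the mode of the counter is not given. The largest unshared stretch is chromosome 7, 128117306 to 128118491 (GRCm38), 1186 bases at the gene's 3′ end. Over the whole exon length Itgam had 5.05 ± 0.40 CPM per kb with malonyl-CoA and 5.42 ± 1.90 CPM per kb in controls, and over the unshared bases it had 16.1 ± 1.28 and 17.3 ± 6.08 CPM per kb (SD, n = 4 each). Its comparison between groups does not depend on the length used, but its rank among the integrins does.

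With the unshared length, Itgal was the leading alpha transcript of the Itgb2 family. It made up 50.9% to 66.0% of the summed CPM per kb of Itgal, Itgam, Itgax and Itgad with malonyl-CoA and 45.0% to 67.8% in controls. Itgam made up 27.4% to 36.4% and 24.9% to 45.2%, Itgax 6.43% to 13.9% and 7.13% to 13.0%, and Itgad 0.159% to 0.254% and 0.215% to 0.432%. In control 5 Itgam, at 45.2%, and Itgal, at 45.0%, were level. The 4 alpha genes together came to 0.83 to 1.18 times the CPM per kb of Itgb2 with malonyl-CoA and to 0.832 to 1.30 times in controls. The 12 partners of Itgb1 came to 0.382 to 0.589 times Itgb1 with malonyl-CoA and to 0.391 to 0.455 times in controls.

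The promoter-side windows of the neighbours Itgam and Itgax, which encode partners of the same beta subunit, are shown for comparison, each with 250 bases before the start on the plus strand of chromosome 7, GRCm38.p6 (chr7:128062390-128062639 and chr7:128129300-128129549). Capitals mark GAGGAA and GGGCGG as above and TGANTCA, the letters of AP-1 sites, on either strand.
Itgam: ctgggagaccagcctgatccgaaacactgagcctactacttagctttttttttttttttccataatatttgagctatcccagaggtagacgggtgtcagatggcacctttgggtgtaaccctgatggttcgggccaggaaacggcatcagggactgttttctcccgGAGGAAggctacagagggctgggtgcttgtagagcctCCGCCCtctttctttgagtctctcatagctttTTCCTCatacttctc
Itgax: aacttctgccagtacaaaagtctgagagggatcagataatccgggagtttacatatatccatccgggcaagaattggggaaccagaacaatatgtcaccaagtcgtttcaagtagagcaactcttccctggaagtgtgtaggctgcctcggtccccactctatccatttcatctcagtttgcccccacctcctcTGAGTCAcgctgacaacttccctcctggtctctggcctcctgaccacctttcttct
Itgam held 2 matches to GAGGAA and 1 to GGGCGG, and Itgax held 1 to TGANTCA, which 6.75% of all windows hold. Windows were found for 6 of the 10 members, and of the other windows Itga4 held 1 match to GGGCGG and Itgb7 none of the 3.

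Itgb7 (ENSMUSG00000001281, chromosome 15, 102215995 to 102231944, minus strand), the beta subunit of gut-homing receptors, stood at 158, 168, 135 and 152 CPM with malonyl-CoA and at 148, 160.5, 131 and 95.3 CPM in controls. The groups overlapped, and control 5 was the lowest library. Its log2 fold change was 0.20 (SE 0.16, 95% interval -0.16 to 0.56, edgeR adjusted p = 0.599). Itgb7 has the highest GC share of the members (58.0%), and with the GC correction the sign turned, to -0.04. It was 0.06 when control 5 was left out. The ratio of Itga4 to Itgb7 per kb was 0.258 to 0.537 with malonyl-CoA and 0.293 to 0.65 in controls, with control 5 the highest, where Itga4, the member lowest in GC (41.1%), was high and Itgb7 was low.

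Itgae (ENSMUSG00000005947, chromosome 11, 73090583 to 73147446, plus strand), known from T cells and dendritic cells of epithelia, had 6, 12, 8 and 4 counts in malonyl-CoA cultures 1, 3, 4 and 5 and 9, 10, 6 and 9 counts in controls. This is 0.2365 to 0.586 CPM and 0.279 to 0.538 CPM, below the filter, and at this depth a difference between the groups was not detectable. The ratio of Itgae to Itgb7 per kb was at most 0.00211 with malonyl-CoA and 0.00268 in controls.

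**Figure D3:**
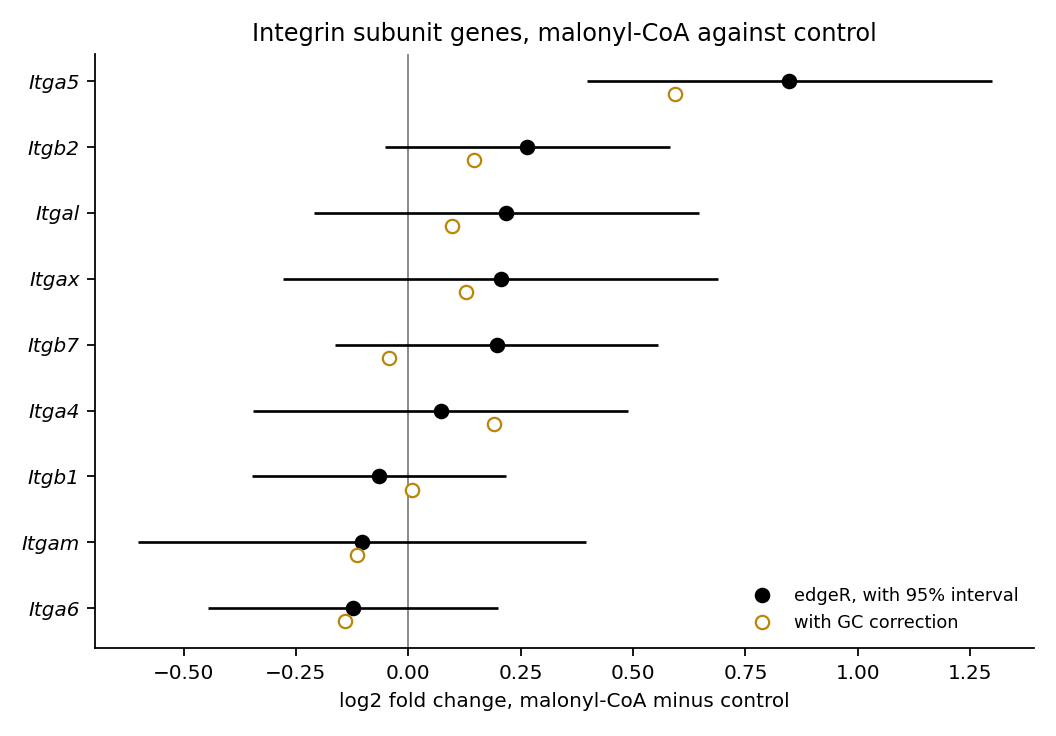
Log2 fold change of the 9 tested integrin subunit genes, malonyl-CoA minus control, on the horizontal axis. Filled points with lines are edgeR estimates with 95% intervals, open points the values with the GC correction; Itga5 lies at 0.85 (0.40 to 1.30) and 0.59, and the sign of Itgb1 and Itgb7 turns with the correction.

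Ordered by level per length over all 8 libraries, Itgb1 led with a mean of 110.1 CPM per kb, followed by Itgb2 at 53.6, Itgb7 at 51.8, Itgal at 29.6, Itga4 at 19.2, Itga6 at 16.0, Itga5 at 7.91, Itgax at 5.48 and Itgam at 5.24, and Itgae came last at 0.088. By the exon length used, neighbours in this order were separated in all 8 libraries except in 3 places. Itgb2 was above Itgb7 in 5 of 8 libraries, Itga5 above Itgax in 5 of 8, and Itgax above Itgam in 5 of 8. Itga5 was above Itgax in all 4 malonyl-CoA libraries. Over its unshared bases Itgam would stand at a mean of 16.7 CPM per kb, near Itga6. The exon length joins the exons of all transcripts of a gene and can exceed its longest coding transcript. For Itga6 it is 9025 against 4310 bases, and for Itga4 13978 against 9767 bases. The order, that of Itga4 and Itga6 included, therefore depends on the length used, and levels per transcript length were not computed.

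**Figure D4:**
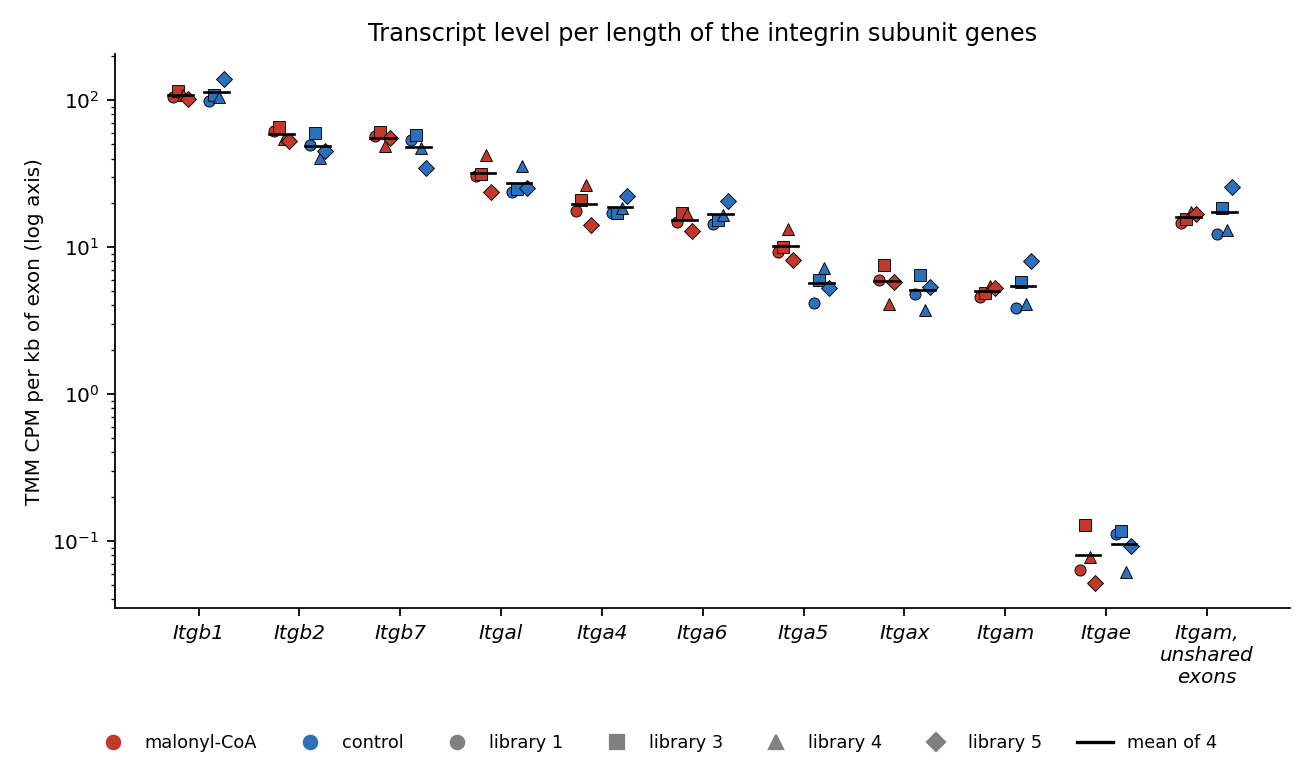
TMM CPM per kb of exon on a log axis for the 10 integrin subunit genes in the 8 libraries, ordered by mean, with Itgam drawn again at the right over its unshared exon bases. The beta subunit genes lead, from 110.1 CPM per kb for Itgb1, and Itgae stands at a mean of 0.088.

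The genes most like each member over the 8 libraries were sought by the root mean square difference of mean-centred log2 CPM, among 9165 genes whose mean log2 CPM reached 3. For Itga5, whose own SD over the libraries was 0.54, they were Zmiz2, a transcriptional coregulator, at 0.098, Rara, the retinoic acid receptor alpha gene, at 0.10 and Pik3r5, a regulatory subunit of phosphoinositide 3-kinase gamma, at 0.11. For Itgal they were Pip4k2b at 0.047, Inpp5d, the inositol phosphatase SHIP-1, at 0.047 and Gak at 0.056. For Itgax they were Trim30a at 0.083, Lrp12 at 0.085 and Cd68, a lysosomal protein of macrophages, at 0.089. For Itgb2 they were Sntb2, Gpr132 and Aoah, at 0.080, 0.080 and 0.083.

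Ligands of these receptors were also transcribed in the cultures. Of 24 ligand genes, 15 were tested and edgeR called 0, with 6 higher and 1 lower at an unadjusted p under 0.05, where the shares over all genes were 5.43% and 4.1%. Tgfbi, a matrix protein that binds integrins, had 109 to 121 CPM with malonyl-CoA and 55.7 to 85.3 CPM in controls, without overlap (log2 fold change 0.69, SE 0.14, edgeR adjusted p = 0.352, DESeq2 adjusted p = 0.0076). Icam1, the ligand of the Itgal receptor, had 38.6 to 65.2 CPM with malonyl-CoA and 20.3 to 42.3 CPM in controls, with overlap (log2 fold change 0.91, SE 0.24, edgeR adjusted p = 0.352). Icam4, a red cell ligand of leukocyte integrins, had 1.52 to 2.60 and 2.82 to 4.45 CPM, without overlap (log2 fold change -0.71, SE 0.23, edgeR adjusted p = 0.443). C3, the source of the complement fragment that Itgam binds, had 181 to 505 and 81.1 to 232 CPM, with a log2 fold change of 1.01 (SE 0.37, edgeR adjusted p = 0.502). Fn1, the fibronectin gene, picked here because it is the ligand of Itga5, had 7.33 to 27.2 and 7.30 to 12.1 CPM, with malonyl-CoA 4 the highest.

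Among proteins that switch integrins on or off, 25 of 28 genes were tested, 16 with a positive and 9 with a negative log2 fold change, and edgeR called 0 (1 at an unadjusted p under 0.05, DESeq2 0). Sipa1, which turns off the integrin activator Rap1, had a log2 fold change of 0.83 (SE 0.35, edgeR adjusted p = 0.515), Tln2, a talin that binds beta tails, 0.93 (SE 0.52), Cyth1, a regulator of Itgb2 adhesion, 0.29 (SE 0.16) and Flna, a filamin that binds beta tails, 0.31 (SE 0.18). Of 30 genes of integrin signalling and focal adhesions, 28 were tested, 21 with a positive log2 fold change, and edgeR called 0 (2 at an unadjusted p under 0.05). Over all genes the log2 fold change was positive in 53.4%, and 9.53% had an unadjusted p under 0.05 in edgeR. The counts at that p in both lists are near that background. For the adhesion kinase gene Ptk2b the log2 fold change was 0.40 (SE 0.17), for the exchange factor genes Arhgef7 and Vav2 it was 0.25 (SE 0.13) and 0.39 (SE 0.21). The medians of the ligand, activation and signalling lists were 0.45, 0.05 and 0.19, against 0.02 over all genes.

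Of 16 other integrin subunit genes, 10 were tested and edgeR called 0, and DESeq2 called 0. At an unadjusted p under 0.05 edgeR also had 0, where the share over all genes was 9.53%. Their median log2 fold change was 0.09. For Itga8 it was -0.69 (SE 0.35), for Itgb5 0.27 (SE 0.16), for Itgad -0.29 (SE 0.28) and for Itga1, a collagen-binding subunit, 0.32 (SE 0.31). The platelet receptor genes Itga2b and Itgb3, picked for their known role in megakaryocytes, averaged 326 ± 43.7 and 161 ± 26.4 CPM with malonyl-CoA and 305 ± 65.7 and 165 ± 17.7 CPM in controls (SD, n = 4 each).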

How the data were processed

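Total RNA libraries were made with a stranded kit, per the labels' protocols. The authors deposited unnormalized gene counts for each library. The submitters' processing notes name cutadapt 1.8, STAR 2.5.2b, HTSeq 0.6.1 and the build GRCm38. Not given in the sources used here are the strand setting, counting mode and annotation release. Counter classes that name no gene were left out of library sizes. Of the counter's summed tally, 1.11% to 2.94% lay in no gene, 0.715% to 0.891% was ambiguous and 38.2% to 51.1% had several positions. Whether the last class tallies reads or their alignments is not given in the sources used here. Of 48709 identifiers, 48349 matched GENCODE M21 (GRCm38), which gave symbols, exon lengths and GC shares. All 28 pairs of libraries differed beyond sampling noise (chi-square per gene at least 7.63). Promoter windows came from RefSeq (GRCm38.p6).

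The test was edgeR 4.0.16 in R 4.3.3 (filterByExpr, TMM, robust glmQLFit, two-sided glmQLFTest, no covariate), adjusted by Benjamini-Hochberg over 12696 genes at 0.05. It was also run on counts simulated with dispersions taken from these data. Of 108 genes given an absolute log2 change of 1 it recovered 74 (68.5%). Of 92 genes given a change of 2 it recovered 87 (94.6%). The whole simulated run of 12600 genes had 8 false calls. Dispersions give the spread of each gene, but not shifts shared by many genes, such as the GC shift of a control library. The recovered shares may therefore not hold for these data. Standard errors were taken as the size of the log2 fold change divided by F's square root, and 95% intervals from the t quantile at the fit's degrees of freedom. The GC correction is a loess offset per library with span 0.5. The members and lists were chosen with earlier results of these data known, and by rule the 4 genes of smallest p in each pathway list are named, except 1 signalling gene that is not reported here. Alternatives were other scalings and filters, a replicate block, libraries left out, DESeq2 1.42.0, limma-voom (limma 3.58.1) and the GC correction.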

Additional observations from a re-analysis of the deposited data

Results flagged for a closer look

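In groups of 4 libraries, 58 sets of values were examined for a highest or lowest library whose gap to its nearest neighbour took up most of the group's range, and 6 were found. Chance gives about 1 in 20 for independent sets. These sets reuse the same genes and libraries and are not independent, so their count cannot be set against that rate. In 4 of them the library was numbered 4: Itgal in control 4, at 234 CPM with the next control at 166 (gap 0.868 of the range), the Itgal to Itgb2 ratio in malonyl-CoA 4, at 0.775 with the next at 0.493 (0.868), the summed partners of Itgb2 relative to Itgb2 in malonyl-CoA 4, at 1.18 with the next at 0.885 (0.84), and the Itga6 share of Itgb1 partners in malonyl-CoA 4, at 26.1% with the next at 31.8% (0.839). The other 2 were the Itgam share of Itgb2 partners in malonyl-CoA 5, at 36.4% with the next at 28.6% (0.861), and the Itgad share in control 1, at 0.432% with the next at 0.241% (0.883), which rests on 14 counts.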

How the results depend on the processing

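Over 25 alternatives, Itga5, Itgb2, Itgal and Itgax kept a positive log2 fold change. That of Itga5 ran from 0.59 to 0.99, and it passed the threshold under DESeq2 (adjusted p = 0.0378) and the replicate block (0.0464) and not under the other 23, with 0.088 for the block with the GC correction. Its adjusted p reached 0.883. The labels do not say what the numbers mean, so the main fit did not use them as pairs and the block is an alternative. Same-numbered libraries deviated together in pairs 1, 3 and 4 (correlations 0.43, 0.43 and 0.75, each best with its own number). They hardly did so in pair 5 (0.0523, best with another), which holds control 5. Deviations were taken from the group mean and sum to 0 within a group, so these correlations are not independent of each other. A shared source of same-numbered libraries was not tested and is not given by the design. Over all genes the number called was 172 with the replicate block, 18 with the block and GC correction, 81 with DESeq2, 1 with no low-count filter and 0 in the other fits. Among the members the block called 1 and DESeq2 1. Among ligands the block called 2 (Tgfbi and Icam1), DESeq2 1 (Tgfbi) and the block with GC correction 1 (Icam1, adjusted p = 0.0485). Among activation genes the block called 1 (Sipa1), and among signalling genes the block and DESeq2 called 1 each. Signs turned with the GC correction for Itgb1 (0.0074, and 0.0088 with the block) and Itgb7 (-0.0425, and -0.045 with the block), and without both control 5 and malonyl-CoA 4 for Itgam (0.10), Itga4 (-0.0021) and Itgb1 (0.046). With 1 library or 1 number left out, Itgam ran from -0.26 to 0.14, Itga4 from -0.11 to 0.30, Itga6 from -0.22 to 0.075 and Itgb1 from -0.12 to 0.080. Over unshared exon bases, a length chosen after seeing the data, Itgam averaged 16.7 and not 5.24 CPM per kb, and its ratio to Itgb2 0.32 and not 0.10. The cause of these changes was not tested, other than by the make-up of each alternative.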

Other observations

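Tln1, the talin that binds beta tails and links them to actin, had a wide spread within each group. It stood at 308, 363, 876 and 223 CPM in malonyl-CoA cultures 1, 3, 4 and 5 and at 101, 173, 495 and 205 CPM in controls 1, 3, 4 and 5. Library 4 was the highest of each group, as it was for Sipa1 at 88.0 and 45.8 CPM, for Itgal at 276 and 234 CPM and for Itga5 at 65.1 and 35.5 CPM in malonyl-CoA 4 and control 4. Other adaptor genes differed from this: Lims1 was lowest in library 4 of each group, at 271 and 348 CPM, and Ilk was lowest in malonyl-CoA 4 of its group, at 161 CPM. These genes were picked after their values were seen. Tln1 was chosen for its spread after its values were seen, and its log2 fold change of 0.86 had an SE of 0.53 (edgeR adjusted p = 0.537).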
